A study of Homo sapiens with 6 samples.

Results

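The nuclear respiratory chain genes are the genes of the cell nucleus that encode subunits of complexes I to V of the mitochondrial inner membrane. They were chosen by symbol: those beginning with NDUFA, NDUFB, NDUFC, NDUFS or NDUFV (complex I), SDHA to SDHD (complex II), UQCR (complex III), COX4 to COX8 (complex IV) or ATP5 (complex V), without pseudogenes, antisense genes and the assembly factors. The rule gave 88 protein-coding genes, of which 66 had a probe set annotated to them alone among the 11963 genes measured. They were 28 in complex I, 3 in complex II, 6 in complex III, 13 in complex IV and 16 in complex V. Of the other genes under the rule, 8 were reached only by probe sets shared between several genes and 14 had no probe set named for them. These were not analysed here. They include SDHB and UQCRFS1, core subunits of complexes II and III, and the isoforms COX4I2 and COX6B2.

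MDA-MB-231 is an established human line from a triple-negative breast cancer. Cells grown in RPMI medium with fetal bovine serum and antibiotics were profiled at baseline (0 h; 3 arrays, named E, 4 and 5 in the sample titles) and after 12 h with dinaciclib, an inhibitor of cyclin-dependent kinases that includes those acting on RNA polymerase II (3 arrays, named F, 4 and 5). The drug, dissolved in DMSO, went straight into the medium at a dose the labels leave out, and cells were trypsinized and lysed in Trizol for total RNA. The labels describe no untreated 12 h arm and no solvent for the baseline cells, so the drug cannot be told apart from time, handling or solvent, and no label says that the arrays came from separate cultures. A p-value here therefore reflects only the scatter between arrays, 3 a group, and that scatter may be technical. The test also draws each gene's variance towards a value common to all rows. For a gene with little scatter of its own, the SE and interval are therefore wider than that scatter gives.

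The respiratory chain passes electrons from NADH and succinate through complexes I, II and III to oxygen at complex IV, and the proton gradient built by complexes I, III and IV drives ATP synthesis by complex V. A few core subunits come from mitochondrial DNA and the rest, described here, are made in the cytosol from nuclear mRNAs and imported. Several transcription factors, among them NRF1, GABP (NRF2) and YY1, are known to act on the promoters of these genes, and the encoded mRNAs are known as abundant, housekeeping transcripts in most cells.

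Promoter sequence is a feature of these genes that the symbol rule did not use. In RefSeq windows on GRCh38.p14 from 250 bases before to 50 bases after the first listed start of each gene, 58 of the 66 genes had a window, and 3 short motifs were searched on both strands: GCATGCGC for NRF1, CCGGAAG for GABP and ATGGCGG for YY1. None of these strings contains another. At least 1 of them was found in 31 of the 58 windows (53.4%), against 24.8% of the windows of 9563 genes on the array. The 5 windows below are shown because together they hold each motif and because each belongs to a gene whose values are given further on. Each sequence is the 160 bases directly before the start, read 5′ to 3′ on the gene's strand, with whole motif matches in capitals.
NDUFS1, chr2:206159445-206159604, minus strand: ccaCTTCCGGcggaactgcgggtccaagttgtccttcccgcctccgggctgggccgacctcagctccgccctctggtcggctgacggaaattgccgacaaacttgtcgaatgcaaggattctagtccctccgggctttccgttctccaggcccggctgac
SDHD, chr11:112086713-112086872, plus strand: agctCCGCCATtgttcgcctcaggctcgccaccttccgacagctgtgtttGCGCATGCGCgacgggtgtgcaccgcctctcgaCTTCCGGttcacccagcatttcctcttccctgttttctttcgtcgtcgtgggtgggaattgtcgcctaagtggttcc
UQCR11, chr19:1605463-1605622, minus strand: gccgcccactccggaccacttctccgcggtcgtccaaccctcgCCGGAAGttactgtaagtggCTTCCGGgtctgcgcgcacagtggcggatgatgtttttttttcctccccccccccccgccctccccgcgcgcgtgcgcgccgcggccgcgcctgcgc
COX5B, chr2:97645902-97646061, plus strand: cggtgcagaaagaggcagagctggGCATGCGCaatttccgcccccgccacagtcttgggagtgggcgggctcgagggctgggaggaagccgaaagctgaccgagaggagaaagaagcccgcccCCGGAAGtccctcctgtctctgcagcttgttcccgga
ATP5F1C, chr10:7788017-7788176, plus strand: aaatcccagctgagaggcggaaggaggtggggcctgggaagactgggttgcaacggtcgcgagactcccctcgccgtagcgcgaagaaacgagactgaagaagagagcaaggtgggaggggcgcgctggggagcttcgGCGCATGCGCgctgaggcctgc

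The NRF1 string was in 12 of the 58 windows (20.7%), against 4.44% of the array genes and 3.27% of all 27305 genes with a window. The GABP string was in 17 (29.3%), against 15.2% of the array genes and 10.7% of all genes, and the YY1 string in 16 (27.6%), against 8.85% and 5.72%. A TATA string, TATAAA, was in 7 windows (12.1%), against 8.30% and 12.0%. Of the 58 genes, 11 held 2 or more of the first 3 motifs and 3 held all 3, among them SDHD, the small membrane anchor of complex II. The stretches of NDUFS1 and SDHD hold the GABP string as its reverse complement, that of UQCR11 holds it in both orientations, and in SDHD and ATP5F1C the palindromic capitals are overlapping NRF1 matches on both strands. Most genes with a YY1 string held it after the start, for example at bases 11 to 17 in NDUFS6 and 40 to 46 in NDUFV2. Most NRF1 and GABP matches lay before the start. Whether the YY1 matches after the start belong to the promoter was not tested. A match describes letters in a window and does not show that a factor binds there. The comparison genes were not matched for base content.

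No respiratory chain gene passed the test in either direction after 12 h with dinaciclib. Of the 66 genes, 0 were raised and 0 lowered at an adjusted p under 0.05 in limma, against 3.54% raised and 16.4% lowered among all 11963 genes. Respiratory chain transcripts were bright, and among the 1341 genes at or above their lowest quartile of mean signal 6.11% were raised and 4.18% lowered. At an unadjusted p under 0.05 stood 2 of the 66, NDUFA3 and NDUFS1, against 34% of all genes, and the smallest adjusted p of a member was 0.152. In bulk RNA, fewer cells and less RNA per cell cannot be told apart.

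In the values as deposited the changes were small as well as uncalled, whereas centring each array on its median raised 37 of the 66 and put their median at 0.56. As deposited, the median log2 change of the 66 genes was 0.11, with 50 genes above 0 and 16 below, whereas the median of all genes was -0.26. Without baseline array E the members' median was -0.02. Changes ran from -0.48 for NDUFS1 to 0.60 for NDUFA3, and 64 of the 66 (97.0%) lay within 0.5 of no change, against 50.4% of all genes. The 95% interval of the change lay inside -1 and 1 for 63 of the 66 genes, against 32.5% of all genes. The 3 exceptions were NDUFA3, NDUFB2 and COX7A1, whose upper bounds were 1.19, 1.04 and 1.59, and the lowest bound of any member was -0.96. This count held for the values as deposited. It was 65 after quantile normalization, 59 centred on the spiked control probe sets and 38 centred on the array median. The shares of all genes were then 41.8%, 23.3% and 36.9%. The members had a median signal percentile of 94.9, and none of these shares of all genes was taken among bright genes alone. Among the bright genes described above the median change was 0.09, where all genes had -0.26. The median half-width of the interval was 0.52, against 0.64 over all genes. A typical member with a smaller change would have an interval that includes 0. The interval is not adjusted for the number of rows tested, and a call needs a larger change: NDUFA3, at 0.60, was not called.

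**Figure D1:**
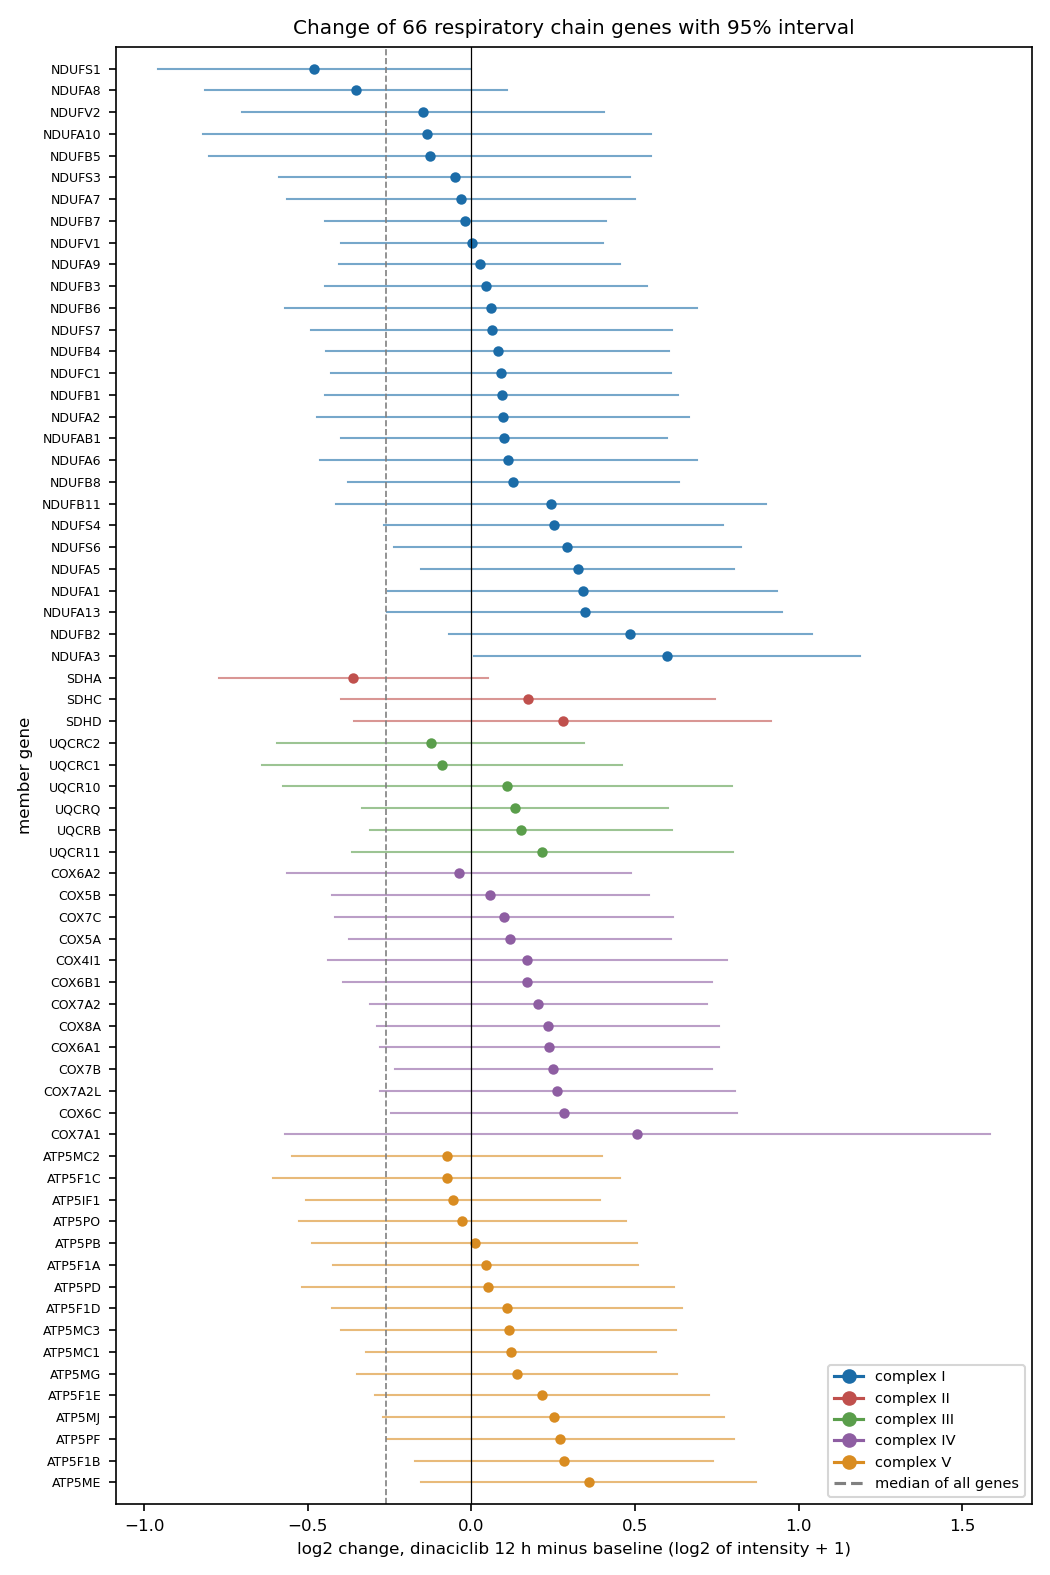
Log2 change of each of the 66 genes (x axis, log2 of intensity + 1, dinaciclib 12 h minus baseline, 3 arrays a group), sorted within the complexes; points are limma estimates and bars their 95% intervals. The points lie between -0.48 and 0.60, most of them to the right of the dashed median of all genes at -0.26, and only the intervals of NDUFS1 and NDUFA3 leave 0 out.

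Complex I oxidises NADH and held both ends of the range. NDUFA3, a small accessory subunit of the membrane region, had intensities of 880, 1322 and 1153 at baseline (E, 4, 5) and 1398, 1999 and 1664 after dinaciclib (F, 4, 5). All 3 treated arrays lay above all 3 baseline arrays. The log2 change was 0.60 (SE 0.24, adjusted p = 0.152). NDUFB2, also an accessory subunit of the membrane arm, had 2126, 3167 and 2814 at baseline and 3284, 4287 and 3695 after the drug, again without overlap, for a log2 change of 0.49 (SE 0.23, adjusted p = 0.21). NDUFA5, an accessory subunit of the arm that projects into the matrix, had 1098, 1487 and 1347 against 1518, 1732 and 1645. Its lowest treated array was above its highest baseline array by a small margin, and the log2 change was 0.33 (SE 0.20, adjusted p = 0.329).

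At the other end of complex I stood NDUFS1, the large iron-sulfur subunit that hands electrons from the flavin site inwards. Its intensities were 982, 1303 and 1043 at baseline and 783, 852 and 733 after dinaciclib. Every treated array was below every baseline array, and the log2 change was -0.48 (SE 0.20, adjusted p = 0.153). NDUFA8, an accessory subunit on the intermembrane side, had 1266, 1575 and 1590 against 1078, 1249 and 1129, also without overlap, with a log2 change of -0.35 (SE 0.19, adjusted p = 0.271). NDUFV1, the flavin subunit where NADH is oxidised, read 783, 749 and 778 against 795, 776 and 744, a log2 change of 0.00 with a 95% interval from -0.40 to 0.40. Over the complex, 20 of 28 genes had a positive change and the median was 0.09. The 5 measured core subunits, which carry the redox centres and the catalytic site, had a median of -0.05, and the 23 accessory subunits a median of 0.10.

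Complex II, succinate dehydrogenase, also belongs to the tricarboxylic acid cycle. SDHA, its flavoprotein that oxidises succinate, had 1169, 1220 and 1233 at baseline and 997, 947 and 879 after dinaciclib. The groups did not overlap, and the log2 change was -0.36 (SE 0.17, adjusted p = 0.208). The SDHA probe set carries the suffix x_at, given where probes may also match other sequences. The 2 membrane anchors had positive changes on their brightest probe sets: SDHD had 2001, 3291 and 2798 against 2620, 3759 and 3341 (log2 change 0.28, SE 0.26, adjusted p = 0.542), and SDHC had 1057, 1478 and 891 against 1228, 1296 and 1252 (0.17, SE 0.24, adjusted p = 0.687). The SDHC value is that of its brightest probe set: 2 of its 4 probe sets had changes below 0, -0.02 and -0.08, and the mean of the 4 gave 0.049. Both anchors overlapped between groups, and no difference between SDHA and the anchors was tested.

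Complex III passes electrons from ubiquinol to cytochrome c. Its 2 large core proteins had negative changes: UQCRC1 had 664, 1011 and 970 against 759, 870 and 818 (-0.09, SE 0.23), and UQCRC2 had 1393, 1853 and 1565 against 1373, 1565 and 1452 (-0.12, SE 0.19). The 4 small subunits had positive ones, from 0.11 to 0.22. The highest was UQCR11, with 2196, 3281 and 2567 against 2601, 3692 and 3024 (SE 0.24). UQCRB, which lies near the ubiquinone site, had 4694, 5899 and 5568 against 5479, 6534 and 5901 (0.15, SE 0.19). All of these overlapped between groups, and adjusted p-values in this complex were 0.609 or higher for the 4 genes named.

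Complex IV, cytochrome c oxidase, had the highest median of the 5 complexes, 0.20, with 12 of 13 genes above 0. COX6C, a small subunit of the membrane part, had 5163, 7481 and 7079 at baseline and 7168, 8594 and 8005 after dinaciclib (0.28, SE 0.22, adjusted p = 0.446). Only treated array F fell within the baseline range. COX4I1, the regulatory subunit that binds nucleotides, had 3307, 5149 and 4926 against 4111, 5422 and 5370 (0.17, SE 0.25), and COX5A, which touches it on the matrix side, had 3884, 5107 and 4811 against 4509, 5632 and 4804 (0.12, SE 0.20). COX5B, the zinc-binding subunit, had 2400, 3140 and 3107 against 2704, 3190 and 3060 (0.06, SE 0.20). In these 3 genes the groups overlapped, and baseline E was the lowest array of each.

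Several complex IV subunits exist as isoforms for different tissues. COX6A1, the common form, had 5098, 7164 and 6568 against 6480, 8074 and 7521 (0.24, SE 0.21), while COX6A2, the form of heart and skeletal muscle, was between 20.1 and 29.0 on all 6 arrays. COX7A1, the muscle form of the next pair, was between 1.54 and 2.02 on 5 arrays and at 6.95 on treated array 4, and this single value gave its change of 0.51 (SE 0.45): without treated array 4 the change was -0.01. COX7A2, the common form, had 4105, 5792 and 5361 against 5232, 6386 and 5836 (0.20, SE 0.21). COX7A2L, a related protein that takes part in joining complexes III and IV into supercomplexes, had 1474, 2195 and 1854 against 1917, 2417 and 2237 (0.26, SE 0.22). The 2 muscle forms were the only members with a mean intensity under 100 in both groups, and 55 of the 66 were above 1000 in both. COXFA4, formerly named NDUFA4 and now counted with complex IV, falls outside the symbol rule and had a log2 change of 0.38 (SE 0.25, adjusted p = 0.377), with 2748, 4331 and 4098 against 3976, 5412 and 4979.

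Complex V turns the proton gradient into ATP. ATP5F1B, the catalytic beta subunit of its F1 head, had 3625, 4670 and 4299 at baseline and 4757, 5285 and 5212 after dinaciclib. The groups did not overlap, and the log2 change was 0.28 (SE 0.19, adjusted p = 0.373). The alpha subunit ATP5F1A, which alternates with beta in the head, had 6150, 7619 and 7654 against 6598, 7759 and 7681 (0.04, SE 0.19). The central stalk subunit ATP5F1C, which rotates inside the head, had 5094, 7114 and 6846 against 5174, 6536 and 6271 (-0.08, SE 0.22). Alpha and gamma overlapped between the groups, and the 5 genes of the head and central stalk had a median change of 0.11.

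The membrane part of complex V and its peripheral stalk, 10 genes, had a median of 0.12. ATP5ME, a small membrane subunit linked to dimers of the enzyme, had 2528, 3463 and 2691 against 3561, 4180 and 3331 (0.36, SE 0.21, adjusted p = 0.314). The 3 genes for the identical c subunit of the rotor, ATP5MC1, ATP5MC2 and ATP5MC3, had changes of 0.12, -0.08 and 0.11 (SE 0.18, 0.20 and 0.21), none past the threshold. For ATP5MC2 the sign depended on the probe sets used: the mean of its probe sets gave 0.25 in place of the value from the brightest one. Its other probe set was very dim, with means of 6.84 and 8.51, against 2568 and 2428 for the brightest. The inhibitor ATP5IF1, which stops the enzyme from running backwards, had 1318, 1289 and 1190 against 1290, 1318 and 1056 (-0.06, SE 0.19), and its groups overlapped.

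Over all members, the 3 treated arrays lay above the 3 baseline arrays for 4 genes (NDUFA3, NDUFA5, NDUFB2 and ATP5F1B), or 6.06% of the 66, against 9.36% of all genes. They lay below for 3 genes (NDUFA8, NDUFS1 and SDHA), or 4.55%, against 30.7% of all genes. The remaining 59 overlapped. These shares of all genes, too, were not taken among bright genes alone. Of the 66 genes, 21 had several probe sets, 99 probe sets in all, and none of the 99 was called when every probe set was tested. The changes of a gene's probe sets differed by a median of 0.17 and at most by 0.91, in NDUFB8, and in 8 genes the probe sets had both signs. The NDUFB8 probe set that differed, at -0.78, was dim, with means of 101 and 59.3, against 2561 and 2805 for the brightest.

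**Figure D2:**
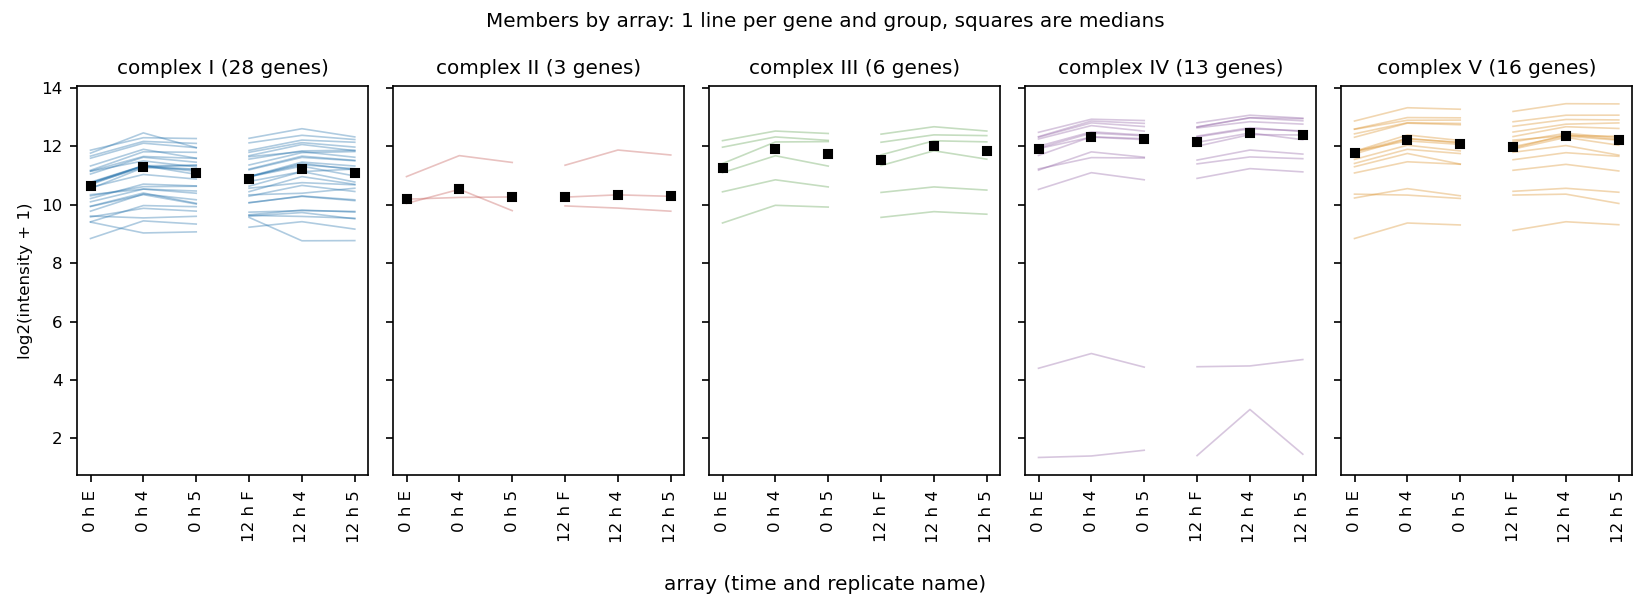
Log2(intensity + 1) of every member on each array, 1 panel per complex; lines join the values of 1 gene within a group only to follow it, and squares are the median of the complex on that array. In each group the lettered array has the lowest square in every complex, and the only 2 lines below 8 are COX6A2 and COX7A1 in complex IV.

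Arrays with letters and arrays with numbers stood apart for these genes. The labels do not say what the letter or number marks. The median member intensity was 2230 on baseline E, 3196 on 4 and 2745 on 5, and 2627 on dinaciclib F, 3530 on 4 and 3113 on 5, so that the lettered array was lowest in each group. Across both groups 62 of 66 genes were higher on numbered than on lettered arrays, by a median of 0.33 in log2, against 0.15 for all genes. The control probe set for the 5′ part of 18S ribosomal RNA moved the same way: it read 736 and 1155 on E and F and 8273 to 9061 on the numbered arrays. The ratio of the 3′ to the 5′ probe set of ACTB, a sign of RNA quality, was 4.27 and 3.64 on E and F and 5.87 to 6.67 on the others. The same ratio of GAPDH showed no such split: it was 1.23 and 1.15 on E and F and 1.17 to 1.24 on the others. The part of these in the values of the respiratory chain was not tested.

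Within each kind of array the comparison was repeated. From E to F, 1 array each and hence without a test, 59 of 66 genes had a positive change and the median was 0.22; on the numbered arrays 44 did and the median was 0.06. All of those 44 were positive in both, and 7 genes were negative in both, among them NDUFS1, NDUFA8 and SDHA. All genes had medians of -0.15 and -0.32, and the median of the members lay above that of all genes by 0.37 from E to F and by 0.38 on the numbered arrays. With letter against number as a term in limma the median SE of the members went from 0.22 to 0.14. Still 0 of 66 were raised and 0 lowered, against 5.01% and 19.1% of all genes. At an unadjusted p under 0.05 stood 5 members, but the share of all genes at that level in this fit was not counted. The smallest adjusted p of a member was 0.0542, for NDUFA3.

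**Figure D3:**
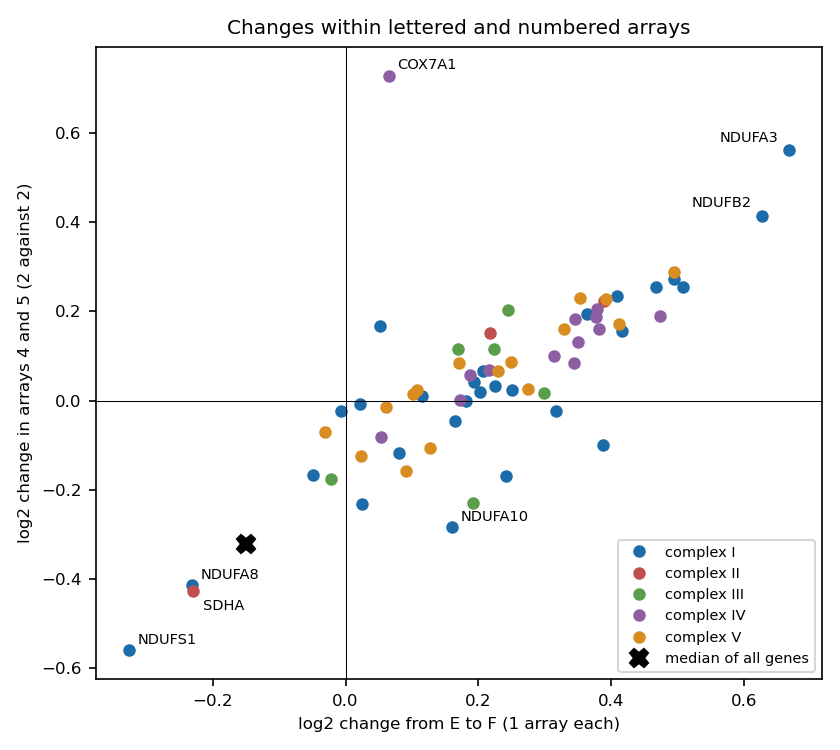
Log2 change of each member from array E to array F (x axis, 1 array each) against its change on arrays 4 and 5 (y axis, 2 against 2), coloured by complex; the cross is the median of all genes. Of the 66 points, 44 lie in the upper right quadrant and 7 in the lower left, and the cross lies at -0.15 and -0.32.

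The sign and the calls depended on how the arrays were scaled. The median intensity of the whole array was 53.3, 66.2 and 60.8 at baseline and 43.3, 46.8 and 40.6 after dinaciclib, lower on every treated array, while the maximum lay between 12014 and 14588 on all 6. In the values as deposited, all genes had a median change of -0.26. Centring each array on its median moved the median of all genes to 0.19 and that of the members to 0.56, and 37 of the 66 (56.1%) were then raised and 0 lowered, against 16.3% and 10.9% of all genes. Those raised were 14 of 28 in complex I, 1 of 3 in complex II, 3 of 6 in complex III, 10 of 13 in complex IV and 9 of 16 in complex V. Among them were NDUFA3 at 1.05 (adjusted p = 0.0106) and ATP5F1B at 0.73 (adjusted p = 0.0131), whereas NDUFS1 stood at -0.03 and SDHA at 0.09.

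Quantile normalization, which gives every array the same distribution of values, left the members near no change. Their median was then 0.08 against -0.02 for all genes. NDUFA3 alone was raised (0.63, adjusted p = 0.0213) and none was lowered, against 8.89% and 13.4% of all genes. With letter against number as a further term NDUFA3 and NDUFB2 were raised (adjusted p = 0.0151 and 0.0427), against 10.9% of all genes. Centred on the mean of the spiked control probe sets, the members' median was 0.03 against -0.34, with 0 called. In log2 that mean was 7.81, 7.88 and 7.93 at baseline (E, 4, 5) and 7.90, 7.79 and 8.19 after dinaciclib (F, 4, 5). Whether it follows the amount of RNA was not tested. NDUFA3 was also past the threshold, by a little, when dim probe sets were left out (adjusted p = 0.0463) and with a robust variance trend (adjusted p = 0.0414). Over all genes 674 and 675 were then raised, against 423 without these steps. A shift of the members relative to all genes, 0.37, is the same by construction under each scaling that moves a whole array, and it was 0.10 after quantile normalization. Among the 1341 bright genes the median change was 0.09, beside 0.13 for the 49 members in that range.

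**Figure D4:**
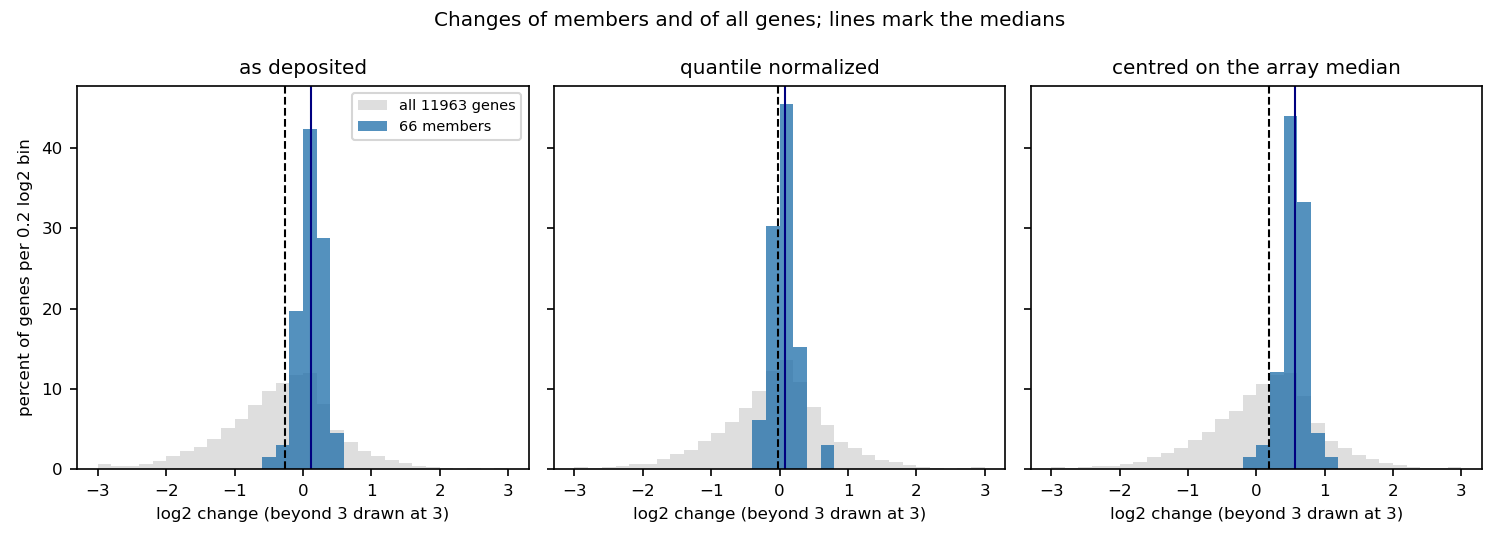
Distribution of the log2 changes of all 11963 genes (grey) and of the 66 members (blue) with the values as deposited, after quantile normalization and after centring on the array median; the y axis is the percent of genes per bin, and lines mark the medians (dashed, all genes; solid, members). The members form a narrow peak at 0.11, 0.08 and 0.56, next to medians of all genes at -0.26, -0.02 and 0.19.

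Other genes of the pathway, from lists of known function, had changes over a wider range than the subunits, a description that was not tested. These lists were also dimmer. Their median signal percentiles ran from 64.2 (regulators) to 85.5 (tricarboxylic acid cycle), against 94.9 for the subunits. The part of brightness in the wider range was not tested. Of 30 measured assembly factors of the complexes (58 listed), 3 were raised and 7 lowered (10.0% and 23.3%, against 3.54% and 16.4% of all genes), with a median of -0.39. The lowest were TMEM186, needed to assemble complex I, at -1.74 (SE 0.21, adjusted p = 0.00499), from 164, 205 and 209 to 61.7, 61.0 and 48.1, and TMEM177, which acts in complex IV assembly, at -1.66 (SE 0.17, adjusted p = 0.0042), from 148, 152 and 152 to 50.8, 42.6 and 48.1. The highest was COX10, which makes heme for complex IV, at 1.37 (SE 0.27, adjusted p = 0.0185), from 121, 202 and 151 to 322, 483 and 416. ATPAF2, a chaperone of the F1 head, went from 46.3, 33.5 and 33.8 to 144, 79.0 and 69.1 (1.28, SE 0.33, adjusted p = 0.0408). None of these 4 genes overlapped between groups. ATPAF2 was not past the threshold without any 1 of the 6 arrays (adjusted p from 0.0543 to 0.126) or centred on the spiked controls (0.0847), and the mean of its probe sets gave 0.27 (adjusted p = 0.659). Nor was COX10 past it without baseline 5, dinaciclib 4 or dinaciclib 5 (0.066, 0.0614 and 0.0618) or on the numbered arrays alone (0.0522). The 10 calls of the list became 4 without baseline 4, 3 without baseline 5, 5 without dinaciclib F, 5 without dinaciclib 4 and 3 without dinaciclib 5.

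Of 19 electron carriers and coenzyme Q synthesis genes (21 listed), 1 was raised and 3 lowered, and the median was -0.49. These shares, 5.26% and 15.8%, were near the 3.54% and 16.4% of all genes. COQ9, a lipid-binding protein of the coenzyme Q pathway, went from 272, 334 and 288 to 107, 78.8 and 96.9 (-1.66, SE 0.21, adjusted p = 0.0053), and COQ7, the hydroxylase it works with, from 144, 175 and 157 to 69.6, 69.1 and 65.6 (-1.20, SE 0.18, adjusted p = 0.00794). COQ8A, an atypical kinase of the same pathway, went up from 239, 305 and 220 to 550, 656 and 515 (1.17, SE 0.22, adjusted p = 0.0146), though its adjusted p was 0.063 without baseline 5, 0.0544 without dinaciclib 4, 0.0526 with spiked controls and 0.079 on the numbered arrays alone. The count of 4 fell to 2 without either of those arrays. Of 17 genes of the tricarboxylic acid cycle other than succinate dehydrogenase (19 listed), 0 were called in limma, 3 had an unadjusted p under 0.05, and the median was -0.07.

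Of 23 genes that copy, transcribe and process mitochondrial DNA and its RNA (28 listed), 2 were raised and 4 lowered, with a median of -0.23. That is 8.70% raised and 17.4% lowered, against 3.54% and 16.4% of all genes, whose median was -0.26. Both ends of the range were FASTK family members that process mitochondrial transcripts: FASTKD1 went from 244, 266 and 271 to 58.2, 60.7 and 55.4 (-2.14, SE 0.17, adjusted p = 0.00313) and FASTKD5 from 339, 477 and 413 to 1341, 1772 and 1778 (1.99, SE 0.23, adjusted p = 0.00463). TFB2M, a transcription factor of mitochondrial DNA, rose by 1.60 (SE 0.28, adjusted p = 0.0129), and POLG2, the accessory subunit of the mitochondrial DNA polymerase, fell by 1.49 (SE 0.25, adjusted p = 0.0116; 0.0601 on the numbered arrays alone). The mRNAs made from mitochondrial DNA were not analysed here. Of 25 genes for protein import (31 listed), 0 were raised and 5 lowered (20.0%, against 16.4% of all genes), with a median of -0.35. The lowest were 2 small chaperones of the intermembrane space, TIMM9 at -1.90 (SE 0.22, adjusted p = 0.00489), from 625, 789 and 859 to 190, 240 and 175, and its partner TIMM10 at -1.26 (SE 0.28, adjusted p = 0.0281). TIMM10 was past the threshold only with baseline 4, baseline 5, dinaciclib F, dinaciclib 4 and dinaciclib 5 all kept (adjusted p from 0.0576 to 0.0963 without 1 of them), and the 5 import calls became 1, 1, 2, 1 and 1 without each of those arrays in that order.

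Of 17 regulators of mitochondrial biogenesis (20 listed), 2 were raised and 3 lowered (11.8% and 17.6%, against 3.54% and 16.4% of all genes), with a median of -0.13. GABPA, the DNA-binding subunit of GABP, whose string stands in the promoters of NDUFS1, SDHD, UQCR11 and COX5B shown above, went from 48.5, 64.1 and 66.6 to 136, 138 and 168 (1.29, SE 0.21, adjusted p = 0.0111). The groups did not overlap, and the call held without each array in turn. The 17 genes with a GABP string had a median change of 0.17 and those without it 0.09; for NRF1 the medians were 0.10 and 0.10, and for YY1 0.11 and 0.10, given as a description with no test. NFE2L2, a factor of the oxidative stress response, rose by 1.16 (SE 0.21, adjusted p = 0.0137; 0.0535 without baseline 5 and 0.0521 without dinaciclib 4). CREB1, a cyclic AMP response factor, went from 477, 620 and 643 to 213, 194 and 142 (-1.67, SE 0.24, adjusted p = 0.0075). PPARD, a nuclear receptor of fatty acid metabolism, fell by 1.24 (SE 0.25, adjusted p = 0.0201), but was not past the threshold without baseline 4, baseline 5 or dinaciclib 4 (0.0749, 0.0693 and 0.0513) or on the numbered arrays alone (0.0571), and the mean of its probe sets gave -0.61 (adjusted p = 0.0846). The count of 5 regulators was 3, 2 and 2 without those arrays.

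**Figure D5:**
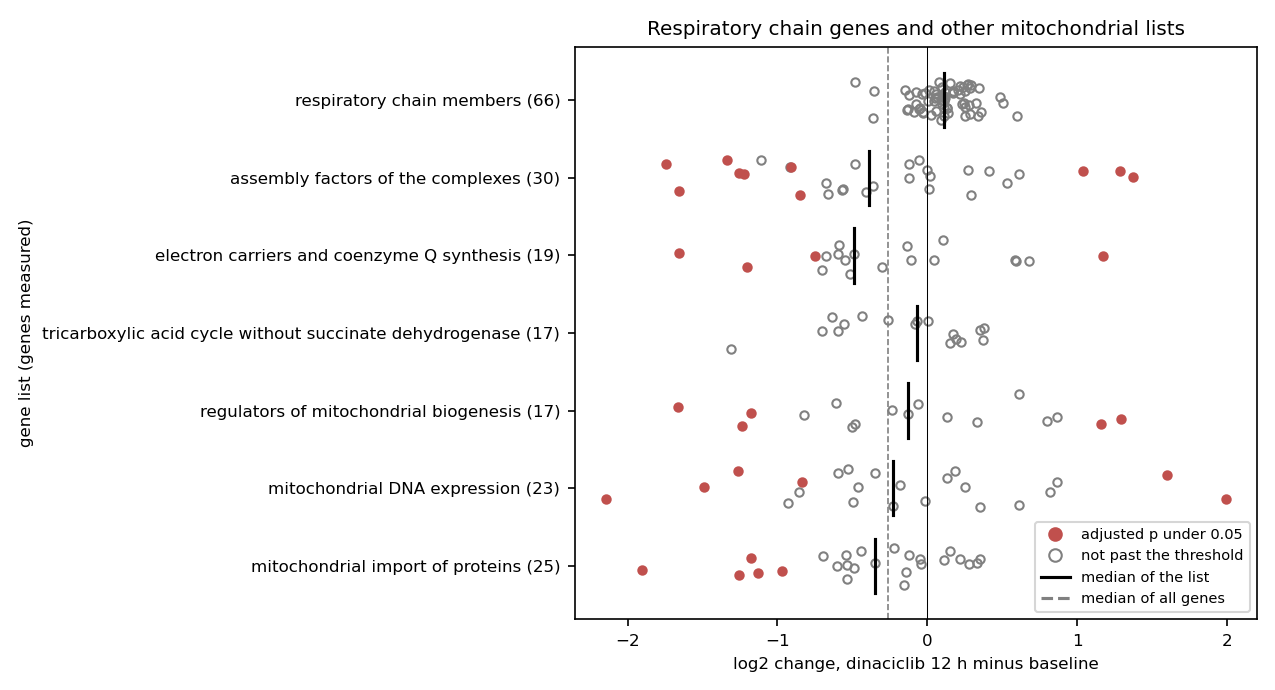
Log2 change (x axis, dinaciclib 12 h minus baseline) of each measured gene of the respiratory chain and of 6 other mitochondrial lists (rows, with the number measured); filled points have an adjusted p under 0.05, bars are list medians and the dashed line is the median of all genes. The 66 subunits have no filled point and lie within -0.48 and 0.60, while the assembly factors run from -1.74 to 1.37 and the mitochondrial DNA genes from -2.14 to 1.99. The rows are not matched for brightness: the median signal percentile is 94.9 for the subunits, 70.3 for the assembly factors and 74.5 for the mitochondrial DNA genes.

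As checks of the arrays, log2 values correlated at 0.966 to 0.974 within groups and 0.943 to 0.951 between groups, and no pair of arrays was identical. Over all genes 423 were raised and 1965 lowered. Those 2388 calls fell to 1153, 1118, 1448 and 1396 without baseline 4, baseline 5, dinaciclib 4 and dinaciclib 5, so the shares called among all genes fell too. Of the 6 markers listed as present in this mesenchymal line, VIM, CD44, AXL, CAV1 and MSN read between 3411 and 9649 on every array, and SPARC read at most 17.1. Of the markers listed as absent or low, ESR1, PGR and CDH1 read at most 33.6, ERBB2 between 60.6 and 175, EPCAM between 190 and 242 and GATA3 between 263 and 401. The 6 markers of leukocytes, endothelium and muscle read at most 46.0. GAPDH changed by 0.05 and ACTB by 0.13 in log2, neither past the threshold.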

How the data were processed

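RNA of 6 samples of MDA-MB-231 cells was measured on 1-colour oligonucleotide arrays of 22277 probe sets. The values analysed are the deposited intensities of the series' value table, on a linear scale; no label or header says how the authors computed or scaled them, and that is therefore unknown here. With 6 arrays, their number limits the precision.

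Of the probe sets, 62 were controls, 19064 named 1 gene, 1043 several and 2108 none. Probe sets were named from the platform annotation, and 19052 were matched by gene identifier to RefSeq (GRCh38.p14), from which promoter windows were also taken. Each gene took its probe set with the highest mean signal. For SDHA, COX4I1, COX7C, ATP5F1C, ATP5ME and ATP5MG this was a probe set with the suffix x_at, whose probes may also match other sequences. The part of other sequences in these values was not tested. The 15114 rows (11963 genes, plus probe sets that name none or several) went into a test on log2(intensity + 1) with limma 3.58.1 (lmFit, eBayes) in R 4.3.3, dinaciclib against baseline, all 6 samples, no covariate, Benjamini-Hochberg over all rows, called at adjusted p under 0.05. The steps were tested on simulated data. Fold changes on this scale understate changes of dim genes.

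Members and lists were chosen with earlier results of these data known. Genes named in full are, per complex, the 2 highest and 2 lowest changes, catalytic and core subunits, isoform pairs and the inhibitor; per other list, the 2 largest called rises and falls. NDUFA5, COXFA4 and NDUFB8 were added after their values were seen, as was the grouping of subunits by role. Alternatives were other scalings, pseudocounts, probe set rules and filters, letter against number as a term, the numbered arrays alone, and leaving out each array.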

Additional observations from a re-analysis of the deposited data

How the results depend on the processing

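In all settings tried, 0 respiratory chain genes were lowered. The number raised was 0, except 1 after quantile normalization, 1 without dim probe sets, 1 with a robust variance trend, 2 with the letter or number as a term after quantile normalization, and 37 centred on the array median. The median change was 0.56 centred on the array median and otherwise between -0.02 (without baseline E) and 0.21 (without baseline 4). All genes called numbered 1118 to 2154 without 1 array, 1409 on the numbered arrays alone and 0 with a replicate block. The groups share the numbers 4 and 5, which is too few pairs to show that the numbers pair the arrays (correlations of deviations 0.07 and 0.07, and 0.15 for E with F). In the replicate block E and F each had a term of their own. The change then came from arrays 4 and 5 alone, with very little scatter left for a test. With the replicate block no gene was called, 4093 had an unadjusted p under 0.05, 2 of them members, the members' median was 0.06, and no gene of the 6 other lists was called (0).

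For the other lists, counts that moved by over 1.5 times are given below, rises and falls together. Over all genes the calls moved too, from 2388 to 3356 without dim probe sets, 3355 with the robust trend and 3328 with log2(value + 16). They were 3250 centred on the array median, 3141 with quantile normalization and letter or number as a term, 1835 with spiked controls and 1409 on the numbered arrays alone. Assembly factors: 6 with spiked controls, 6 on the numbered arrays alone, 17 with quantile normalization and letter or number as a term, and 3 to 9 without 1 array. Coenzyme Q: 7 with quantile normalization (7 with the term too), 2 with spiked controls, 9 with letter or number as a term, 2 on numbered arrays, 12 without dim probe sets, 9 with the robust trend, 11 with log2(value + 16), 2 to 3 without 1 array. Tricarboxylic acid cycle: 3 with quantile normalization (3 with the term), 6 centred on the array median, 2 with the term, 3 without dim probe sets, 3 with the robust trend, 1 with every probe set, 2 with log2(value + 16), 0 to 1 without 1 array. In this list the 6 centred on the array median were all raised, and the 3 without dim probe sets all lowered. Mitochondrial DNA expression: 11 centred on the array median, 11 without dim probe sets, 11 with the robust trend, 10 with log2(value + 16), 10 with quantile normalization and the term. Import: 3 on numbered arrays, 9 with quantile normalization and the term, 1 to 5 without 1 array. Regulators: 3 on numbered arrays, 8 with the robust trend, 3 with the mean of probe sets, 2 to 5 without 1 array.

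Of the 66 members, 18 changed sign after quantile normalization, with or without the term, 15 centred on the array median, 10 with spiked controls, 6 with the mean of probe sets, 6 on the numbered arrays alone (6 with the replicate block), and 3 to 20 without 1 array, with 20 without baseline E. The cause was not tested. Among the members named in full, these turned. After quantile normalization, with or without the term, ATP5F1A was at -0.062, ATP5IF1 at 0.0017, ATP5MC3 at -0.016, COX5A at -0.0017, COX5B at -0.033, COX6A2 at 0.24 and UQCRC1 at 0.072. With spiked controls ATP5F1A was at -0.041, COX5B at -0.027 and NDUFV1 at -0.082. Centred on the array median ATP5F1C was at 0.38, ATP5IF1 at 0.39, ATP5MC2 at 0.38, COX6A2 at 0.41, NDUFA8 at 0.099, SDHA at 0.090, UQCRC1 at 0.36 and UQCRC2 at 0.33. The mean of probe sets put ATP5MC2 at 0.25 and NDUFB8 at -0.17. The numbered arrays alone, and the replicate block, put NDUFV1 at -0.0072. Without 1 array, ATP5F1A ran from -0.060 to 0.12, ATP5F1C from -0.23 to 0.027, ATP5IF1 from -0.12 to 0.044, ATP5MC2 from -0.19 to 0.0026, ATP5MC3 from -0.012 to 0.22, COX4I1 from -0.031 to 0.30, COX5B from -0.069 to 0.13, COX6A2 from -0.13 to 0.12, COX6B1 from -0.0068 to 0.31, COX7A1 from -0.011 to 0.78, NDUFV1 from -0.019 to 0.029 and UQCRC1 from -0.28 to 0.021.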
